A study of Mus musculus with 6 samples.

Results

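The genes of the cornified envelope were examined in full-thickness dorsal skin of male C57BL/6 mice. They were taken by symbol: the late cornified envelope (Lce) and small proline-rich (Sprr) families, loricrin (Lor), involucrin (Ivl), filaggrin (Flg), filaggrin 2 (Flg2), hornerin (Hrnr), repetin (Rptn), trichohyalin (Tchh), trichohyalin-like 1 (Tchhl1), cornulin (Crnn), Crct1, cornifelin (Cnfn) and the transglutaminases Tgm1, Tgm3 and Tgm5. The rule found 51 of the 21959 genes in the table, of which 21 were Lce genes, 16 were Sprr genes and 14 were single genes. Mice were shaved in telogen, the resting phase of the hair cycle, at 7 weeks of age. The vehicle group (n = 3) was treated topically with 30% dipropylene glycol in 70% water every day for 7 days. The rebamipide group (n = 3) was treated topically in the same way with 3% rebamipide, a quinolinone drug for gastric ulcer. Poly-A RNA of each mouse gave 1 library. The skin was not separated into layers, so hair follicles and dermis were sequenced together with the epidermis.

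The cornified envelope is the protein shell that replaces the plasma membrane of a keratinocyte as it dies and joins the stratum corneum. Involucrin is laid down first under the membrane, transglutaminases cross-link the proteins, and loricrin, the Sprr proteins, filaggrin-type proteins and Lce proteins reinforce the shell from within. Most of these genes lie side by side in the epidermal differentiation complex, and several, trichohyalin above all, are also used by the inner root sheath of the growing hair follicle. Here Ivl, Tgm1 and Tgm5 were called early genes (3 genes), Lor, Flg, Flg2, Hrnr, Rptn, Tgm3 and the Lce genes late genes (27 genes), and the 16 Sprr genes and the 5 others (Tchh, Tchhl1, Crnn, Crct1 and Cnfn) were kept apart.

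Of the 51 genes, 47 lay on chromosome 3 between 91987578 and 93379287, a stretch of 1.39 Mb that starts with Lor and ends with Tchhl1 (GRCm39, the build of the submitters' processing notes). Tgm1 lay on chromosome 14, Tgm3 and Tgm5 on chromosome 2 and Cnfn on chromosome 7. The promoters of the complex were compared over the 250 bases before each start site, taken from RefSeq (GRCm38.p6), where 47 of the 51 genes had an entry. The TATA box letters TATAAA and the AP-1 motif TGANTCA were searched on both strands. TATAAA was present before 21 of 47 genes (44.7%) and before 13% of 27025 promoters in all. TGANTCA was present before 16 of 47 genes (34.0%) and before 6.87% of promoters in all. The 2 motifs stood together before 9 of 14 Sprr genes and 5 of 13 single genes, whereas TGANTCA was found before 0 of 13 Lce1 and 0 of 6 Lce3 genes. Related copies of a family were counted as separate genes in these shares. The third motif searched, CACACCC, was present before 4 of 47 genes (8.51%) and before 6.85% of promoters in all. The promoters below are shown to set an early gene, a Sprr gene, the late genes Lor and Flg, and an Lce1 gene beside each other, with TATAAA and TGANTCA in capitals. A match is a description of the letters and not of binding.
Ivl (chr3:92573736-92573985, minus strand): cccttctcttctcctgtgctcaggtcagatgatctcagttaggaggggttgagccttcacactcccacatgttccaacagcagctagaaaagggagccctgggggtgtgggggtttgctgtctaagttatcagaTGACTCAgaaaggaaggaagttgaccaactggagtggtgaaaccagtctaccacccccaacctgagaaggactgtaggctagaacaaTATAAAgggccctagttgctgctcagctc
Sprr1a (chr3:92485882-92486131, minus strand): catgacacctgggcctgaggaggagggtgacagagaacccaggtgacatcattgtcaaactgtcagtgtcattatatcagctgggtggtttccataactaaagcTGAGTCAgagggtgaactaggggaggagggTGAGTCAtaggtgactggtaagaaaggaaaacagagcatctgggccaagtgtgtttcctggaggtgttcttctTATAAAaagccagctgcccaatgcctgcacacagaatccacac
Lor (chr3:92083143-92083392, minus strand): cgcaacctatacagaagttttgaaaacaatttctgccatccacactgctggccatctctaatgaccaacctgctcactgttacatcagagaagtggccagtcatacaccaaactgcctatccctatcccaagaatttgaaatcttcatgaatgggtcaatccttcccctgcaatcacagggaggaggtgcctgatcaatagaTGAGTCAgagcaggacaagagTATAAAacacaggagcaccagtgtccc
Flg (chr3:93273296-93273545, plus strand): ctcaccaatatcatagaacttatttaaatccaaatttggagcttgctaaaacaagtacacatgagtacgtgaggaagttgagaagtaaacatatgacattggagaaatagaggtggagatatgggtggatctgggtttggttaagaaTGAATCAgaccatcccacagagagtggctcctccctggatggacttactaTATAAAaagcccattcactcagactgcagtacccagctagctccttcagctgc
Lce1a1 (chr3:92648308-92648557, minus strand): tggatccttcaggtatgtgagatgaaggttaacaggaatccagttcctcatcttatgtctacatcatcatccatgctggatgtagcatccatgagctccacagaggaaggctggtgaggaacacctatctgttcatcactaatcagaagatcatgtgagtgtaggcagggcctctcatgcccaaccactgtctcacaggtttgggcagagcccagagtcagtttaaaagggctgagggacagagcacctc

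In the Ivl, Sprr1a, Lor and Flg promoters the AP-1 letters lay upstream of the TATA box. With the base before the start site as -1, the first letter of TGANTCA was at -116 for Ivl, at -146 and -116 for Sprr1a, at -48 for Lor and at -103 for Flg, and TATAAA began at -29, -43, -27 and -53. In the neighbouring Sprr2b, Sprr2d, Sprr2e, Sprr2f, Sprr2h, Sprr2i and Sprr2k genes TATAAA began at -29 and a TGANTCA between -198 and -193, so these promoters were much alike. The Lce1a1 window held neither motif. Tchh, the most abundant of the 51 genes per length in the vehicle group, also had neither, while Crnn had TATAAA at -29 and TGANTCA at -96.

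Libraries held 38676018 to 39915276 counts in the vehicle group and 32709801 to 34706852 in the rebamipide group, and levels below are given as CPM, that is, counts scaled to a common library size with TMM factors. A count of 0 could hide up to 3 counts, or 0.0601 to 0.117 CPM, counting error only. The 3 rebamipide libraries stood apart from the vehicle libraries in genes of other cell types. Mitochondrial genes took 2.59% to 5.36% of vehicle counts and 13.3% to 22.0% of rebamipide counts, and Ucp1, the uncoupling protein of brown fat, was at 0 in each vehicle library and at 2669, 8591 and 5746 CPM in the rebamipide libraries. Their part in the results was not tested. The third rebamipide library lacked the keratinocyte genes by which skin is recognised, the basal keratins Krt14 and Krt5 having 0 and 4 counts. Krt14 measured 523, 1307 and 1272 CPM in vehicle libraries 1, 2 and 3, against 361 and 238 CPM in rebamipide libraries 1 and 2. Below, 3 values followed by "against" and 3 more are vehicle libraries 1 to 3 and then rebamipide libraries 1 to 3. The fits are therefore also given without that library. In whole skin, fewer keratinocytes and less RNA per keratinocyte cannot be told apart.

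Envelope genes were lower in rebamipide-treated skin in the fitted means, but with every library included no single gene passed edgeR's test over all genes. The replicates differed widely for many of these genes. Of the 51 genes, 41 passed edgeR's expression filter (3 of 3 early, 24 of 27 late, 9 of 16 Sprr and 5 of 5 others) and 10 low genes were not tested. The fitted log2 fold change, rebamipide over vehicle, was below 0 for 41 of 41, against 56.9% of the 14875 genes tested. Its median was -2.29 (range -7.32 for Tchhl1 to -0.82 for Lce3f), with standard errors of 1.16 to 2.94, while the median over all genes was -0.175. By limma-voom, an alternative fit, the median of the 41 was -4.07, and -0.18 over all genes. At an adjusted p under 0.05 (edgeR's quasi-likelihood test) 0 of 41 were called lower, against 6.51% of all genes, and 0 of 41 higher, against 14.1%. The adjusted p-values ran from 0.066 to 0.716. By the thresholds of the study's methods, an unadjusted p under 0.05 and a log2 fold change under -1, 3 of 41 (Tchhl1, Tgm3 and Tgm1) were lower in edgeR, against 14.5% of all genes. These were also the only 3 at an unadjusted p under 0.05, against 39.7% of all genes. DESeq2, which the study used, called 5 of 50 lower at an adjusted p under 0.05 (Tgm3, Tgm1, Tchhl1, Tchh and Sprr2i), against 14.2% of all genes, and 0 higher. By the study's thresholds DESeq2 called these 5 and also Tgm5, Sprr2f, Lce3d, Ivl, Sprr2h, Lce3a and Cnfn lower, against 16.6% of all genes.

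**Figure D1:**
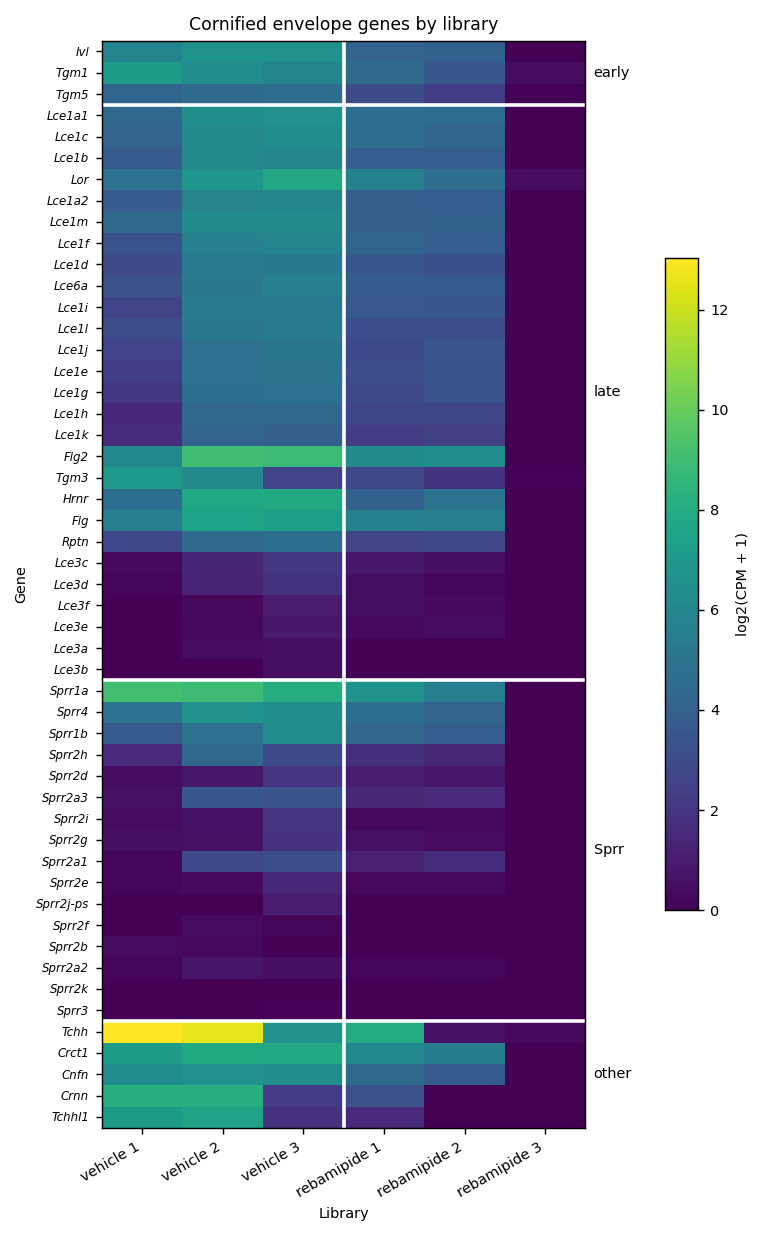
Heat map of the 51 envelope genes (rows, grouped as early, late, Sprr and other and ordered by mean FPKM within a group) in the 6 libraries (columns), coloured by log2(CPM + 1). Rebamipide library 3 is dark throughout, vehicle library 1 is darker than vehicle libraries 2 and 3 over the Lce genes, and Tchh, Crnn and Tchhl1 are brightest in vehicle libraries 1 and 2.

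The third rebamipide library carried almost none of these transcripts. In it 46 of 51 genes were at 0, the remaining 5 (Lor, Tgm1, Tchh, Tgm3 and Tgm5) had 2 to 9 counts, and the sum over the 51 was 28 counts, against 136278 to 510790 in the vehicle libraries and 28336 and 13734 in rebamipide libraries 1 and 2. It was the lowest of the 6 libraries, ties at 0 included, for 51 of 51 genes. The groups did not overlap, with rebamipide lower, in 13 genes, and 12 of these were among the 41 tested, against 24.0% of all genes tested. Since library 3 was the lowest in each, the same 13 genes separated in libraries 1 and 2 alone, against 25.0% of all genes. Over the 44 genes with a mean of at least 10 counts, rebamipide library 1 held a median of 33.6% and library 2 a median of 28.4% of the vehicle mean. Without library 3, edgeR called 6 of 45 genes lower at an adjusted p under 0.05, against 2.49% of all genes, and the median log2 fold change was -1.70. DESeq2 then called 16 of 51, against 10.5% of all genes. Calls over all genes also hung on single libraries, since without vehicle library 2 edgeR called 0 of 14964 genes in either direction (4116 at an unadjusted p under 0.05), and without rebamipide library 2 it called 0 lower and 1 higher of 15335 (4062 at an unadjusted p under 0.05).

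The groups did not overlap in 3 of 3 early genes, against 24.0% of all genes tested, and 0 of the 3 passed edgeR's test with 6 libraries. Ivl, the scaffold on which the envelope is built (ENSMUSG00000049128, chromosome 3, 92478209 to 92481042, minus strand), was at 57.5, 99.5 and 101 CPM against 16.4, 15.3 and 0 CPM. The highest rebamipide library was well below the lowest vehicle library. The fitted log2 fold change was -3.03 ± 1.49 (SE, adjusted p = 0.179, edgeR), and without rebamipide library 3 it was -2.44 ± 0.36 (adjusted p = 0.0237). Tgm1, the membrane-bound transglutaminase that cross-links involucrin, was at 141, 75.7 and 58.7 CPM against 21.6, 10.5 and 0.343 CPM. The groups again did not overlap, although vehicle library 1, the lowest for Ivl, was here the highest. The log2 fold change was -3.08 ± 1.21 (adjusted p = 0.113, edgeR), -2.51 ± 0.54 without library 3 (adjusted p = 0.0429) and -3.11 ± 1.06 by DESeq2 (adjusted p = 0.0148). Tgm5, a soluble transglutaminase of the upper epidermis, was at 17.1, 21.5 and 24.5 CPM against 7.05, 4.29 and 0.0763 CPM. Its log2 fold change was -2.47 ± 1.16 (adjusted p = 0.165, edgeR) and -1.88 ± 0.38 without library 3 (adjusted p = 0.0382).

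The filaggrin-type late genes and loricrin were split within the vehicle group, with library 1 far below libraries 2 and 3. Lor, the most abundant envelope protein of the mouse, was at 28.1, 112 and 228 CPM against 51.0, 23.9 and 0.343 CPM. Rebamipide library 1 was thus above vehicle library 1, and the groups overlapped. Flg, whose protein bundles keratin filaments and is then broken down into natural moisturising factor, was at 48.9, 185 and 160 CPM against 51.9, 46.8 and 0 CPM. Flg2, a related S100-fused protein, was at 67.9, 530 and 472 CPM against 73.9, 79.3 and 0 CPM. Hrnr, a further protein of this family, was at 25.0, 220 and 237 CPM against 15.5, 29.7 and 0 CPM. In each of these 4 genes vehicle library 1 lay within the range of the rebamipide libraries. Rptn, repetin, was at 6.05, 21.5 and 25.6 CPM against 5.47, 5.81 and 0 CPM, so that the groups separated by a narrow margin. The log2 fold changes were -2.29 ± 1.46 for Lor, -1.99 ± 1.66 for Flg, -2.80 ± 1.89 for Flg2, -3.41 ± 1.76 for Hrnr and -2.23 ± 1.42 for Rptn, with adjusted p-values of 0.196 to 0.395 (edgeR). Without rebamipide library 3 they were -1.70, -1.40, -2.21, -2.82 and -1.64, in the same order, and no adjusted p was below 0.120.

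**Figure D2:**
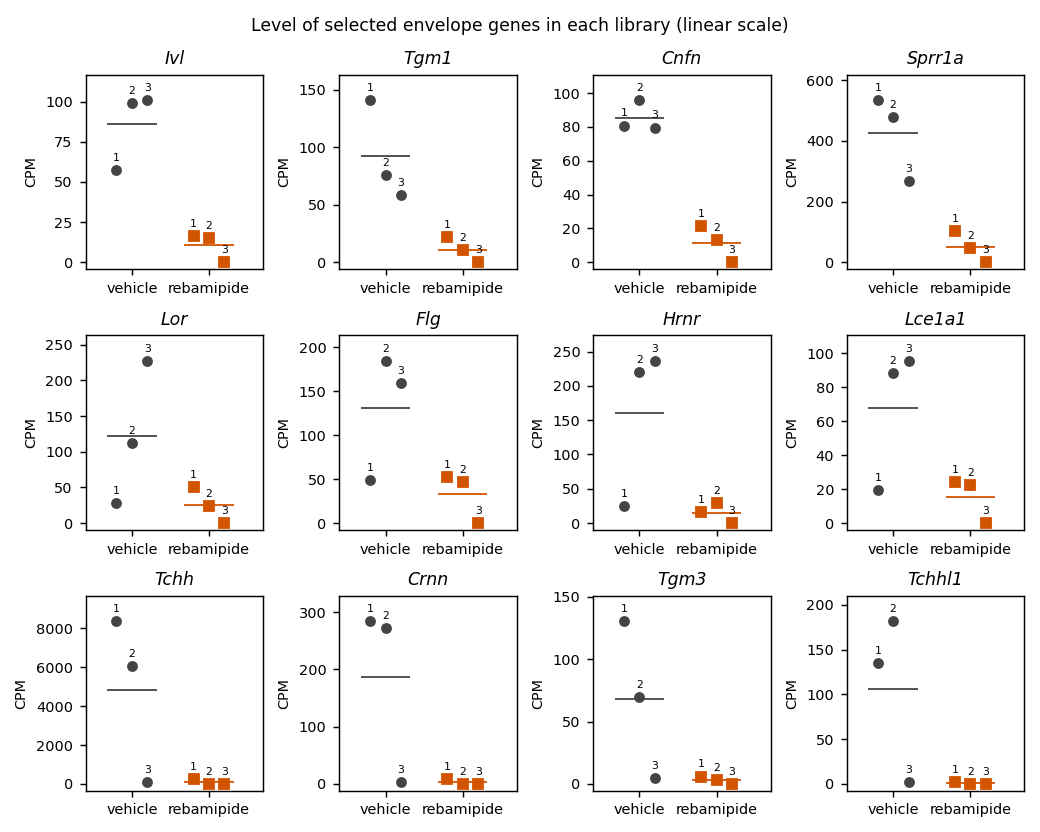
CPM (linear scale) of 12 envelope genes in each library, with vehicle as dark grey circles, rebamipide as orange squares, the library number above each point and a line at the group mean. Ivl, Tgm1, Cnfn and Sprr1a separate the groups, vehicle library 1 sits among the rebamipide libraries for Lor, Flg, Hrnr and Lce1a1, and vehicle library 3 sits near the rebamipide libraries for Tchh, Crnn, Tgm3 and Tchhl1.

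The Lce genes, small late proteins cross-linked into the inner face of the envelope, were low in vehicle library 1 and in the rebamipide libraries. All 14 Lce1 genes passed the filter, and their summed level was 127, 641 and 672 CPM against 167, 161 and 0 CPM. Vehicle library 1 was thus below rebamipide libraries 1 and 2 for the summed family. Across the 14 genes, the ratio of vehicle library 1 to the mean of libraries 2 and 3 was 0.0898 to 0.273, whereas vehicle libraries 2 and 3 were within 0.869 to 1.15 of each other. The highest was Lce1a1 (ENSMUSG00000057609, chromosome 3, 92553842 to 92555614, minus strand), at 19.6, 88.4 and 95.6 CPM against 24.4, 22.4 and 0 CPM. Lce1c was at 17.0, 70.2 and 79.2 CPM against 22.7, 17.4 and 0 CPM. Lce1b was at 12.9, 68.6 and 62.8 CPM against 13.6, 13.9 and 0 CPM. Lce1a2 was at 12.3, 56.3 and 61.3 CPM against 14.6, 13.8 and 0 CPM. In these 4 genes vehicle library 1 lay within the range of the rebamipide libraries. Lce1m, at 19.7, 71.1 and 73.1 CPM against 14.5, 14.9 and 0 CPM, was with Lce1l one of the 2 Lce1 genes whose groups did not overlap. The fitted log2 fold changes of the 14 genes were close to each other, -2.48 to -1.85 (median -2.04), with adjusted p-values of 0.263 to 0.396 (edgeR). Without rebamipide library 3 they were -1.89 to -1.26 (median -1.44), with adjusted p-values of 0.102 to 0.404. Lce6a had a log2 fold change of -1.95. The 6 Lce3 genes, which are known for induction by injury of the skin, summed to 0.421, 3.63 and 8.77 CPM against 2.04, 1.25 and 0 CPM, and 3 of them were tested (log2 fold change -2.89 to -0.82). Lce3f, the least changed of the 41, had 0, 12 and 45 counts against 12, 7 and 0 counts (log2 fold change -0.82 ± 1.57, adjusted p = 0.716, edgeR), and its sign turned without vehicle library 3 (0.89). Lce3c, Lce3d, Lce3e and Lce3f share over 20% of their 100-base windows with other envelope transcripts (GENCODE M21), so their reads are uncertain between copies.

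The Sprr genes, flexible cross-bridging proteins with glutamine and lysine at both ends, differed in which vehicle library was highest. Sprr1a (ENSMUSG00000050359, chromosome 3, 92391259 to 92393202, minus strand) was at 536, 481 and 267 CPM against 102, 48.1 and 0 CPM. Its groups did not overlap and, unlike the Lce genes, it was highest in vehicle library 1. The log2 fold change was -3.10 ± 1.82 (adjusted p = 0.244, edgeR), and -2.51 ± 0.52 without rebamipide library 3 (adjusted p = 0.0396). Sprr4 was at 29.9, 104 and 82.2 CPM against 26.1, 16.6 and 0 CPM (log2 fold change -2.34 ± 1.55, adjusted p = 0.296). Its groups separated by a narrow margin. Sprr1b was at 11.9, 28.2 and 77.4 CPM against 18.7, 14 and 0 CPM (-1.85 ± 1.58, adjusted p = 0.406), with overlap. Among the 12 Sprr2 genes 6 were tested, with log2 fold changes of -3.07 to -1.22, and their sum was 4.41, 39.6 and 35.3 CPM against 7.34, 7.60 and 0 CPM. Sprr2h was at 1.98, 19.4 and 6.61 CPM against 2.40, 1.68 and 0 CPM. Sprr2d was at 0.361, 0.772 and 3.01 CPM against 0.988, 0.779 and 0 CPM, and its log2 fold change of -1.22 ± 1.31 (adjusted p = 0.510) turned to 0.083 without vehicle library 3. Sprr2a1 and Sprr2a2 overlap on the same strand (chromosome 3, 92123227 to 92129218) and share most of their sequence, so their counts cannot be assigned with certainty. Sprr3, an envelope gene of the oral and oesophageal lining, had 0 counts in 5 of the 6 libraries.

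Among the remaining genes, Cnfn and Crct1 separated the groups as the early genes did. Cnfn, a cysteine-rich envelope protein, was at 80.8, 96.1 and 79.6 CPM against 21.1, 12.9 and 0 CPM, the smallest relative spread of the 14 single genes in the vehicle group (85.5 ± 9.17 CPM, SD, n = 3). Its log2 fold change was -2.91 ± 1.49 (adjusted p = 0.193, edgeR), and -2.32 ± 0.33 without rebamipide library 3 (adjusted p = 0.0230). Crct1, the cysteine-rich C-terminal 1 gene of the complex, was at 140.5, 238 and 218 CPM against 67.8, 42.6 and 0 CPM (-2.43 ± 1.67, adjusted p = 0.310, and -1.84 ± 0.39 without library 3, adjusted p = 0.0408). Both had no overlap between the groups.

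Tchh, Tchhl1, Crnn and Tgm3 had another order of libraries than the Lce genes, with vehicle library 3 the lowest of its group. Tchh (ENSMUSG00000052415, chromosome 3, 93349637 to 93356384, plus strand), which stiffens the inner root sheath, was at 8351, 6070 and 104 CPM against 249, 0.507 and 0.229 CPM. It gave 81.6%, 63.7% and 3.56% of the counts of the 51 genes in vehicle libraries 1, 2 and 3. Rebamipide library 1 was above vehicle library 3, so the groups overlapped. Tchhl1 was at 135.4, 182 and 2.65 CPM against 1.94, 0 and 0 CPM, and did not overlap. Crnn was at 284, 273 and 4.00 CPM against 8.46, 0 and 0 CPM. Tgm3, the transglutaminase that cross-links trichohyalin as well as late envelope proteins, was at 130, 69.6 and 5.05 CPM against 5.96, 2.81 and 0.0763 CPM. All 4 genes were low in vehicle library 3 and above its level or close to it in rebamipide library 1. Their fitted log2 fold changes were the largest of the 41, at -5.86 ± 2.94 for Tchh, -7.32 ± 2.27 for Tchhl1, -6.04 ± 2.54 for Crnn and -4.53 ± 1.6 for Tgm3, and their adjusted p-values were 0.185, 0.066, 0.132 and 0.0892 (edgeR). Without rebamipide library 3 the changes were -5.27, -6.74, -5.45 and -3.95, with adjusted p-values of 0.112 to 0.241. By DESeq2 with 6 libraries the adjusted p-values were 0.0421 for Tchh, 0.0283 for Tchhl1 and 0.0025 for Tgm3, and Crnn was given no p-value. Keratins of the inner root sheath (Krt25, Krt27, Krt28, Krt71, Krt72 and Krt73) moved with these genes, their sum being 15962, 7888 and 172 CPM against 871, 0.234 and 0.153 CPM, with 5 of 6 at 0 in rebamipide libraries 2 and 3. Their part in the result was not tested.

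**Figure D3:**
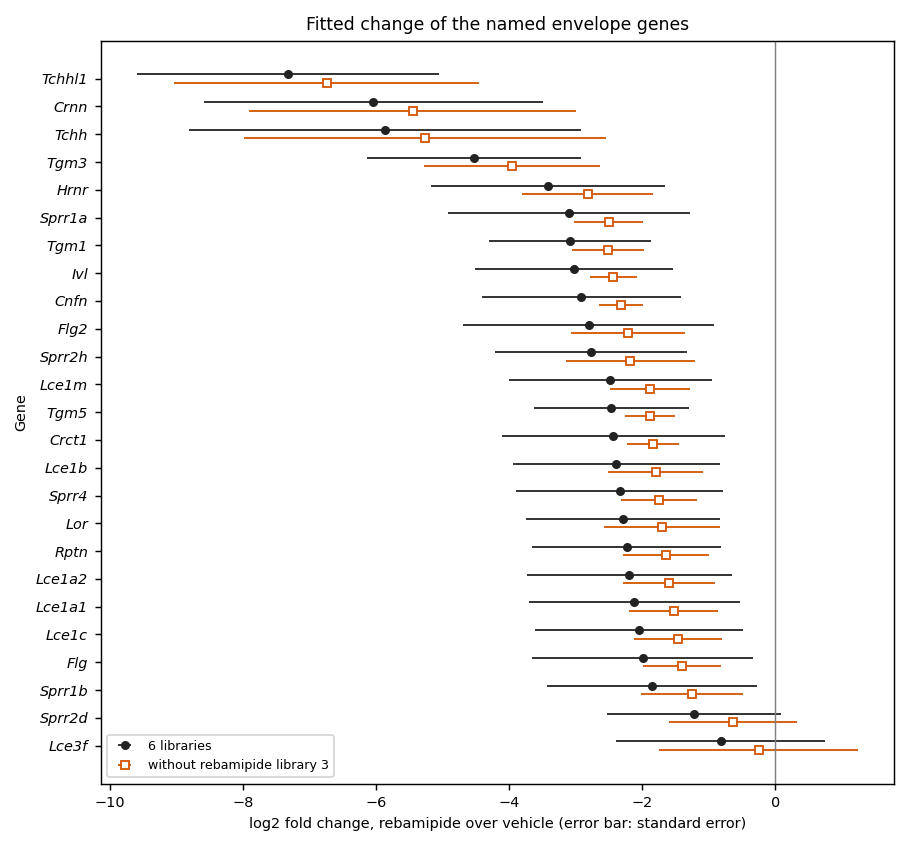
Fitted log2 fold change, rebamipide over vehicle, of the 25 named envelope genes with its standard error, from 6 libraries (black circles) and without rebamipide library 3 (open orange squares). The estimates lie left of 0 in both fits, when library 3 is left out the shortest bars are those of Cnfn, Ivl, Tgm5, Crct1, Sprr1a and Tgm1, and they stay wide for Tchhl1, Crnn, Tchh and Tgm3.

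Early and late genes were then compared as groups, by the mean log2(CPM + 1) over the genes of each. The early mean was 5.73, 5.80 and 5.75 in the vehicle group and 3.87, 3.32 and 0.18 with rebamipide. The likeness of the 3 vehicle means came from genes that differed in opposite directions, as vehicle library 1 was 0.572 times the mean of vehicle libraries 2 and 3 for Ivl, 0.742 times for Tgm5 and 2.102 times for Tgm1. The late mean was 2.88, 4.67 and 4.74 against 3.07, 3.00 and 0.02. The late mean of vehicle library 1 was thus within the range of the rebamipide libraries. The difference, early minus late, was 2.86, 1.13 and 1.01 against 0.80, 0.32 and 0.16, with means of 1.67 ± 1.03 and 0.43 ± 0.34 (SD, n = 3), a change of -1.24, with the highest rebamipide library below the lowest vehicle library. The spread between replicates, pooled over the groups, was 0.769. In rebamipide library 3 both means were near 0, so its difference has little room to vary. The value depended on the Sprr genes, since counting them as early turned it to 0.60, and on vehicle library 1, without which it was -0.64. The Sprr mean was only 1.39, 2.19 and 2.46 in the vehicle libraries, which left it less room to fall on this scale. Among the fitted log2 fold changes the median was -3.03 for the early genes, -2.09 for the 24 late genes tested and -2.34 for the 9 Sprr genes tested. Without vehicle library 1 these medians were -2.63, -2.57 and -2.71.

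**Figure D4:**
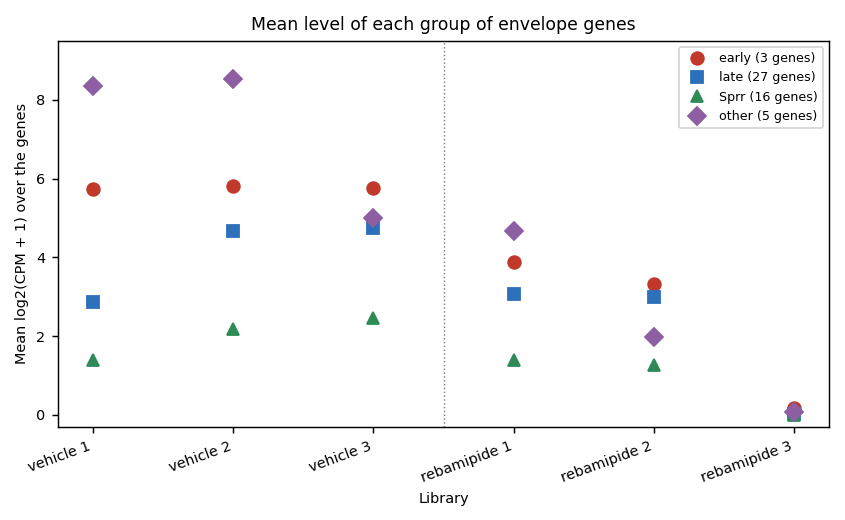
Mean log2(CPM + 1) over the early, late, Sprr and other envelope genes in each of the 6 libraries, 1 point per gene group and library. The early means sit between 5.73 and 5.80 in the vehicle libraries and at 3.87 or lower with rebamipide, while the late mean of vehicle library 1 (2.88) sits at the level of rebamipide libraries 1 and 2.

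Because basal keratinocyte genes also had fitted log2 fold changes below 0 (6 of 6, median -2.44), the envelope genes were also expressed relative to them, as the log2 ratio of a gene's count to the summed counts of Krt5, Krt14, Krt15, Itga6, Itgb4 and Col17a1. That sum was 110228, 188401 and 153089 counts with vehicle and 34246 and 17815 in rebamipide libraries 1 and 2. In rebamipide library 3 it was 3751, where Krt14 was at 0 and Itga6, an integrin also made outside the epidermis, was at 129 CPM, so that library was left out. For the 34 envelope genes with at least 10 counts in each of the 5 libraries, the median change was 0.45 (range -5.47 for Tchh to 1.68 for Sprr2d), with 25 genes above 0 and 9 below. The minimum left out genes that were near 0 with rebamipide, such as Crnn and Tchhl1, and with a mean of at least 10 counts over the 5 libraries in its place the median over 45 genes was 0.53, with 34 above 0 and 11 below. Both rebamipide libraries lay inside the vehicle range for 12 genes, below it for 3 genes (Ivl, Cnfn and Crct1) and above it for 0. Of all 13577 genes with as many counts, 0.737% were below the vehicle range on this scale, on which the lower basal sum of the rebamipide libraries raises every gene. The share of all genes above the vehicle range is not given here, so the 0 has no comparison. Per 1000 basal counts, Ivl was at 26.0, 26.0 and 30.9 against 14.5 and 22.0. Cnfn was at 36.6, 25.1 and 24.3 against 18.7 and 18.6, and Crct1 at 63.6, 62.2 and 66.7 against 60.2 and 61.4, so that the separation of Crct1 was slight. Lce1a1 was at 8.89, 23.1 and 29.2 against 21.6 and 32.3, and Flg at 22.1, 48.4 and 48.8 against 46.0 and 67.4. Hrnr was at 11.3, 57.5 and 72.3 against 13.8 and 42.8, and Flg2 at 30.7, 138 and 144 against 65.5 and 114, so that in both genes the rebamipide libraries lay between vehicle library 1 and vehicle libraries 2 and 3. The median was 0.56 over the 22 late genes and -0.62 over the 3 early genes, and for the same genes without vehicle library 1 it was 0.05 and -0.14. The overall median also depended on that library, without which it was -0.063, and it was 0.57 relative to Krt5 and Krt14 alone and 0.11 relative to suprabasal genes.

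**Figure D5:**
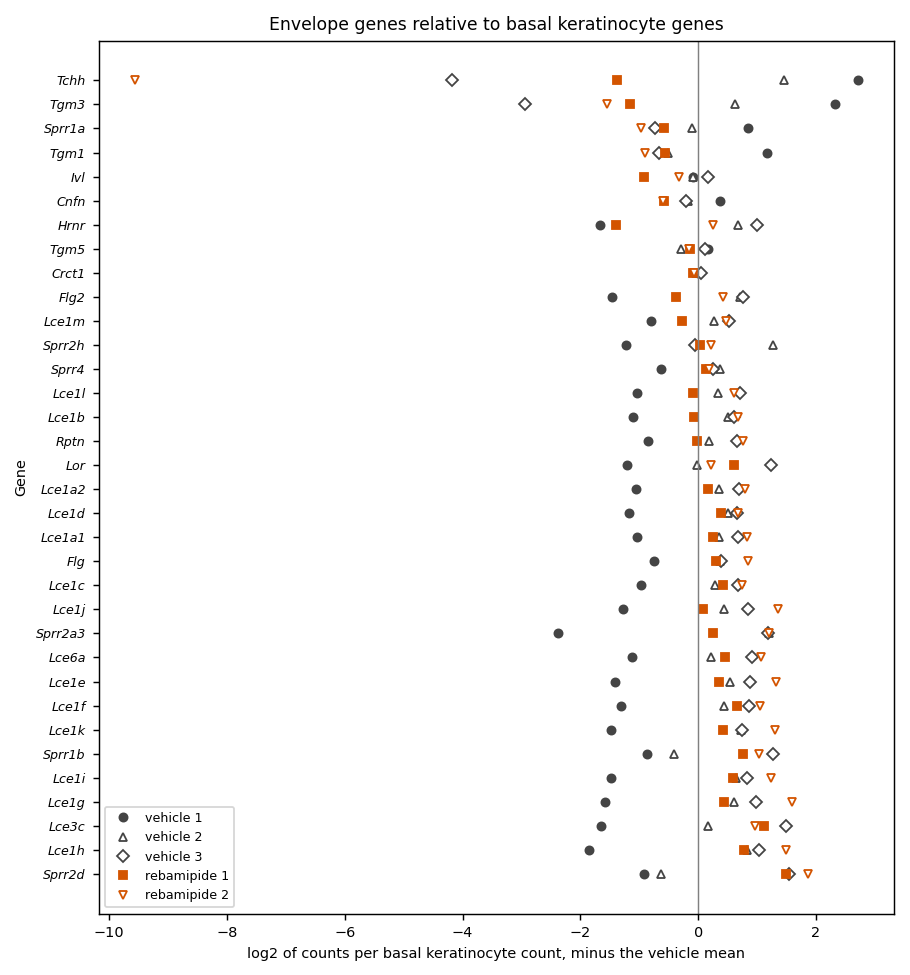
Log2 of each envelope gene's count per count of the basal keratinocyte genes, minus the mean of the 3 vehicle libraries, for the 34 genes with at least 10 counts in each of 5 libraries (grey, vehicle libraries 1 to 3, orange, rebamipide libraries 1 and 2). The filled circle of vehicle library 1 stands to the left for most late genes, and the orange symbols are close to vehicle libraries 2 and 3 for many late genes and below both for Ivl, Cnfn, Hrnr, Flg2, Crct1 and Sprr4.

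The wider set of envelope and cornification genes had fitted changes in the same direction in 35 of 35. Of 36 such genes found, 35 were tested, 4 were lower at an adjusted p under 0.05 (edgeR; 6.51% of all genes), 0 were higher (14.1% of all genes), 9 had an unadjusted p under 0.05 (39.7% of all genes), and the median log2 fold change was -2.29. The 4 were Blmh, the protease that finishes the breakdown of filaggrin (260 ± 16.1 against 81.8 ± 36.5 CPM, SD, n = 3), Cdsn, corneodesmosin of the desmosomes of the stratum corneum (295 ± 57.7 against 73.1 ± 37.1 CPM), Ppl, periplakin, an early envelope plakin (312 ± 71.0 against 37.1 ± 28.9 CPM), and Kazn, kazrin (32.4 ± 11.2 against 10.4 ± 4.68 CPM). Unlike the 51 genes, these 4 kept 155 to 1264 counts in rebamipide library 3, which lacked the basal keratin Krt14. The cells that these counts came from were not tested. Krtdap and Krt10, the most abundant of the list per length, had log2 fold changes of -2.12 ± 1.75 and -2.29 ± 1.61 (adjusted p = 0.393 and 0.320). Without rebamipide library 3, 11 of 35 were lower (2.49% of all genes), and DESeq2 with 6 libraries called 11 lower and 0 higher (14.2% and 14.9% of all genes). The edgeR calls were 5 without rebamipide library 1 (12.8% of all genes) and 0 without any 1 of the vehicle libraries or rebamipide library 2. The suprabasal markers Krt1, Krt10, Krtdap, Sbsn and Dsg1a summed to 1283, 4921 and 6013 CPM against 1506, 1020 and 5.27 CPM, with vehicle library 1 again below vehicle libraries 2 and 3. All 5 had fitted changes below 0 (median -2.22), and edgeR called 0 of 5 at an adjusted p under 0.05 and 0 at an unadjusted p under 0.05 (39.7% of all genes).

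Transcription factors of terminal differentiation were called in both directions, though not in every set of libraries. Of 22 tested, 5 were lower (6.51% of all genes) and 2 were higher (14.1% of all genes) at an adjusted p under 0.05 (edgeR), and the median log2 fold change was -2.24. The lower factors were Prdm1, which acts in the last steps of keratinocyte maturation (59.0 ± 19.4 against 6.68 ± 4.58 CPM), Rora, a nuclear receptor that promotes it (63.5 ± 22.0 against 13.1 ± 4.32 CPM), Klf4, required for the barrier (189 ± 38.3 against 75.6 ± 27.2 CPM), Hopx (103 ± 39.1 against 22.4 ± 14.8 CPM) and Grhl1 (208 ± 115 against 22.1 ± 18 CPM). Cebpa, which also drives fat cells, rose from 180 ± 59.7 to 732 ± 154 CPM, and Ets1, also abundant in endothelial and immune cells, rose from 41.9 ± 14.1 to 118 ± 31.0 CPM. Fat cell genes moved with Cebpa, the sum of Adipoq, Plin1, Fabp4, Lpl and Cidec being 1450 to 3257 CPM in the vehicle libraries and 8804 to 19578 CPM in the rebamipide libraries, and their part in the result was not tested. Without rebamipide library 3, 6 were lower and 1 was higher (2.49% and 6.6% of all genes). Without vehicle library 2 or rebamipide library 2, 0 were called in either direction, without vehicle library 1 the counts were 1 and 1 (2.52% and 10% of all genes), without vehicle library 3 they were 2 and 3 (5.51% and 11.4%), and without rebamipide library 1 they were 5 and 2 (12.8% and 18.3%).

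Keratinocyte genes of stress and regeneration had fitted changes below 0 in 9 of 9. Of 9 tested, 1 was lower (6.51% of all genes) and 0 were higher (14.1% of all genes) at an adjusted p under 0.05 (edgeR), 2 had an unadjusted p under 0.05 (39.7% of all genes), and their median log2 change was -1.67. The call was lost without any 1 of the vehicle libraries or rebamipide library 2. The 1 called was S100a8, an alarmin that neutrophils also make (3.36 ± 1.00 against 1.17 ± 0.24 CPM). Krt17, a keratin of hair follicles and stressed epidermis, was at 647 ± 184 against 99.7 ± 102 CPM, and Krt16 at 65.1 ± 62.8 against 19.8 ± 17.6 CPM, and neither passed the test (adjusted p = 0.318 and 0.464). Il1rn, the interleukin-1 receptor antagonist, was at 54.1 ± 11.4 against 14.2 ± 9.98 CPM (adjusted p = 0.0757).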

How the data were processed

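RNA-seq libraries of dorsal skin from 3 mice treated with vehicle and 3 with 3% rebamipide were analysed. The authors deposited 1 table with the raw read count and the FPKM of each gene. The submitters' processing notes name fastp 0.22.0, HISAT2 2.1.0, HTSeq 0.9.1 and GRCm39. The FPKM deposited by the authors are counts divided by gene length and library total, and were used only to rank genes and in 1 alternative. Total counts set the precision: they were 38676018 to 39915276 (vehicle) and 32709801 to 34706852 (rebamipide). The test was that of edgeR 4.0.16 in R 4.3.3 (filterByExpr, TMM, quasi-likelihood test, Benjamini-Hochberg adjustment over 14875 genes). It was checked on simulated counts with the same spread for every gene and no deviating library. That check does not cover libraries as unlike each other as these. The standard error was taken as the log2 fold change divided by the square root of F. Alternatives were DESeq2 1.42.0, limma-voom (limma 3.58.1), other normalizations, no filter, at least 10 counts in every sample, limma on log2(FPKM + 1), a replicate block and leaving out each library. The unadjusted thresholds follow the study's methods, which used DESeq2.

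The genes and lists were chosen with earlier results of these data known. Named in the text were the 14 single genes, the 5 Sprr and 5 Lce genes with the highest mean FPKM, called genes, the 3 highest and 3 lowest fold changes, and up to 4 genes of each other list (2 by FPKM, 2 by p). Other genes were named after their values were seen. In the other lists, the genes Ctsv and Krt85 were not matched. The mice were separate animals, and same-numbered libraries were not paired. Motifs were searched as letters. Protein sequences were not used here.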

Additional observations from a re-analysis of the deposited data

How the results depend on the processing

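The genes called lower at an adjusted p under 0.05, 0 in edgeR with 3 at an unadjusted p under 0.05, numbered 5 with DESeq2 (14.2% of all genes), 6 of 49 with limma on log2(FPKM + 1) (30.3% of all genes), 1 with the replicate block (Tgm3, 5.75% of all genes) and 0 with limma-voom (6.94% of all genes). At an adjusted p under 0.1 edgeR called 2, and the share of all genes at that threshold is not given here. With single libraries left out edgeR gave 0 to 6, with 6 without rebamipide library 3 (2.49% of all genes) and 1 (Tchh) without rebamipide library 1 (12.8%). DESeq2 gave 0 without vehicle library 2 (lowest adjusted p 0.0552; 12% of all genes called), 2 without vehicle library 1 (11.6%), 2 without vehicle library 3 (13.7%), and 9, 3 and 16 without rebamipide libraries 1, 2 and 3 (23.8%, 8.38% and 10.5% of all genes). Calls by the unadjusted thresholds, 3 in edgeR, numbered 12 with DESeq2, 6 with limma-voom, 5 with no filter, 20 with limma on log2(FPKM + 1) and 5 with the replicate block (16.6%, 15.2%, 13.3%, 20.3% and 14% of all genes). With single libraries left out edgeR gave 1 (without vehicle library 2 or rebamipide library 2, 10.1% and 9.29% of all genes) to 15 (without rebamipide library 3, 13%), and 6 without rebamipide library 1 (19.8%). DESeq2 gave 7 without vehicle library 1 (12.4% of all genes) and 12, 8 and 24 without rebamipide libraries 1, 2 and 3 (22%, 13.3% and 14.3%). Calls of a higher level were 0 in each of these settings, where 0% to 20.3% of all genes were called higher at an adjusted p under 0.05. The median log2 fold change of -2.29 was -4.07 with limma-voom. Requiring 10 counts or more in all 6 libraries left none of the genes, and rebamipide library 3 could not be added to the ratios to basal genes for the same reason.

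The difference early minus late turned from -1.24 to 0.60 with the Sprr genes counted as early, and with single libraries left out ran from -1.57 to -0.64. The median relative to basal genes ran from -0.063 (without vehicle library 1) to 0.80 (without vehicle library 3). In alternatives added after seeing the data, DESeq2 called 11 of 35 other envelope genes, 10 of 22 transcription factors and 2 of 10 stress genes lower (14.2% of all genes), and with single libraries left out edgeR called 0 to 11 of 35 other envelope genes, 0 to 6 of 22 transcription factors and 0 to 2 of 9 stress genes lower (0 to 12.8% of all genes) and 0 to 3 transcription factors higher (0 to 18.3%). Without vehicle library 2 or rebamipide library 2 each of these counts was 0, and over all genes edgeR then called 0 and 1 in either direction. Among 496 alternative values of the 25 named genes, 5 changed sign: Sprr2d without vehicle library 3 (0.083 with edgeR, 0.055 with DESeq2) and Lce3f with limma-voom (0.026) and without vehicle library 3 (0.89 with edgeR, 0.87 with DESeq2). With single libraries left out, Sprr2d ran from -1.81 and Lce3f from -1.53 (both without rebamipide library 1) to these values. The others kept their sign, with 45 newly past the threshold. Same-numbered libraries of the 2 groups did not deviate together (correlations of -0.09, -0.02 and -0.06), so the replicate block, with 1 call lower, shares only a number.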

Other observations

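Marker lists of other cell types gave the setting of these genes. Sums over each list ran from 3692, 1807 and 27.2 CPM in vehicle libraries 1, 2 and 3 to 69.8, 0.0779 and 0 CPM in the rebamipide libraries for hair cortex and cuticle keratins, and from 919, 225 and 29.9 to 114, 6.35 and 0.687 CPM for melanocyte genes. The fibroblast sum was 8302 to 12844 CPM in the vehicle libraries and 10890, 2762 and 1502 CPM in the rebamipide libraries. Brown fat genes summed to 171 to 505 against 4574 to 12425 CPM, with 4 of 6 higher at an adjusted p under 0.05 (edgeR; 14.1% of all genes), and slow muscle genes to 1.13 to 6.15 against 5.69 to 234 CPM, with 4 of 5 higher. Both lists had 0 calls without vehicle library 2 or rebamipide library 2, where edgeR called 0 and 1 genes higher over all genes. Those 0 calls are therefore not particular to these lists. Without vehicle library 1 or 3 (10% and 11.4% of all genes higher), slow muscle had 0 calls and brown fat had 3. Without rebamipide library 3 (6.6% of all genes higher), slow muscle had 4 and brown fat had 3. Fast muscle genes summed to 4071, 18113 and 20262 against 26114, 5549 and 202 CPM. Of the sebaceous list the sum was carried by Scd1, also a fat cell gene, at 2284 to 11660 against 39046 to 108979 CPM, while Awat1, a wax ester enzyme of the gland, was at 25.2, 53.6 and 86.3 against 28.1, 18.4 and 0 CPM. The pair of oral and forestomach genes summed to 0.581, 1.1 and 1.54 against 0.198, 0.312 and 0 CPM.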
